A study of Mus musculus with 48 samples.

Results

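Residual editing in mice whose ADAR1 cannot deaminate RNA was compared between 2 classes of tissue, liver and kidney (6 libraries) and the blood-forming organs bone marrow (BM), spleen and thymus (9 libraries). These were 15 of the 48 libraries of the series, chosen by genotype and tissue from their labels. All mice were male C57BL/6 animals, 12 weeks old. The editing-deficient animals were Adar1E861A/E861A Ifih1-/- (called E861A here), whose ADAR1 is present as protein but has lost its deaminase activity, and their controls were Adar1+/+ Ifih1-/- (WT). Both genotypes therefore lacked MDA5, the cytosolic sensor of double-stranded RNA encoded by Ifih1, in every tissue. BM was taken as haematopoietic cells and the other tissues were homogenised whole, so a level is an average over the cell types of the organ. Each tissue and genotype had 3 libraries that the labels call independent biological replicates. The labels do not say which libraries came from the same animal.

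Adenosine-to-inosine editing converts single adenosines within double-stranded RNA, and inosine is read as guanosine by ribosomes and by reverse transcriptase. In mammals the reaction is carried out by ADAR1, which is made throughout the body, and by ADAR2, the product of Adarb1, which is best known for recoding glutamate receptor transcripts in the brain. In the E861A mice ADAR1 is present but editing-deficient, and the gene of ADAR2 is intact.

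Editing was measured by mmPCR-seq, in which cDNA stretches around known sites are amplified with pooled primers and sequenced, and the editing level is the share of reads that carry G. The tables listed 48715 positions, of which 4183 had more than 100 reads in at least 2 of the 3 E861A replicates of all 5 tissues. At 390 of these the pooled reads of at least 1 tissue gave a level above 1%, and these 390 sites in 139 genes and 33 intergenic positions were compared. The limit of 1% falls within a continuum. The lowest of the sites inside it reached 1.01% in their highest tissue and the highest outside it 0.9995%, and 608 covered sites lay between 0.5% and 1%. The assay measures edited loci and no expression, so the tissue labels could not be checked against marker genes, and a change in which cell types contribute RNA cannot be told apart from a change of editing within a cell type. Summed coverage of the 15 libraries was 5761614 to 8928477 reads, and the median coverage of a tested site over its libraries ranged from 315.5 to 5978 reads.

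The 21 bases around the edited adenosine (capital A, position 11 of each run, read 5′ to 3′ on the transcribed strand of mm9) are shown for the sites on which the results turn. The first 5 change an amino acid.
Cog3, chr14:76119526, minus strand: cattaaggaaAtttccctgga
Flna, chrX:71472201, minus strand: tctagtcttcAggtgaggcac
Copa, chr1:174022479, plus strand: cgtttgggatAtttctggtga
Gria3, chrX:39007429, plus strand: ctcagcattaAggtgggtgga
Cyfip2, chr11:46086145, minus strand: cagatacattAagaccagtgc
The next 5 lie in untranslated or intronic sequence and carried high levels in liver and kidney.
Rpa1, chr11:75114517, minus strand: aacagaaattAtgtcacaagt
Ecm2, chr13:49627526, plus strand: gggtctatatAgtgagatcca
Dclre1c, chr2:3377650, plus strand: aaataaaactAgcaccatgga
uc012eok.1, chr6:86364934, plus strand: ctaccatagtAagttctagac
Adarb1, chr10:76786805, minus strand: ggaggatgttAtaaatgaaaa
The last 3 are shown as contrasts, the first because its levels ran in the opposite direction and the others because their level was alike in the 5 tissues.
2610044O15Rik, chr17:95233738, minus strand: ggcttgaatgAttctaaatat
uc012aji.1, chr17:6123047, plus strand: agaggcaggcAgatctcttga
Iqgap1, chr7:87857174, minus strand: aagaaaaaggAaaaaaaaaag

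Residual editing was higher in liver and kidney than in the blood-forming organs. Over the 242 sites read in all 15 libraries, the mean level was 4.53%, 4.07% and 4.53% in the 3 liver libraries and 2.27%, 2.39% and 2.54% in the 3 kidney libraries. It was 0.821%, 0.955% and 1.86% in BM, 0.754%, 0.624% and 0.677% in spleen, and 0.846%, 0.605% and 0.736% in thymus. All 6 liver and kidney libraries lay above all 9 others, and the difference of the class means was 2.51 percentage points (two-sided exact permutation test of 6 against 9 libraries, p = 0.0004, the smallest that 5005 relabelings can give). Libraries of 1 tissue share that tissue, and with the 5 tissue means as units (2 against 3) the exact permutation test cannot go below p = 0.2, the value it gave. The levels of the sites decided which of them were compared, so the same means were taken over 2 sets of sites that the E861A levels did not choose. Over 561 sites with a pooled WT level above 1% the class means were 1.46% and 0.440% and the classes again did not overlap (exact permutation test, p = 0.0004). Over all 2849 covered sites, edited or not, they were 0.414% and 0.251% (exact permutation test, p = 0.0072), and here the classes overlapped. The tissue means over these sites were 0.521% in liver, 0.307% in kidney, 0.319% in BM, 0.210% in spleen and 0.224% in thymus, so that kidney was not above BM, and BM replicate 3 (0.383%) lay above the 3 kidney libraries (0.294% to 0.322%). The median over the 242 sites was 0.259% in liver and kidney and 0.2003% in the other organs, and this difference did not pass (exact permutation test, p = 0.25).

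**Figure D1:**
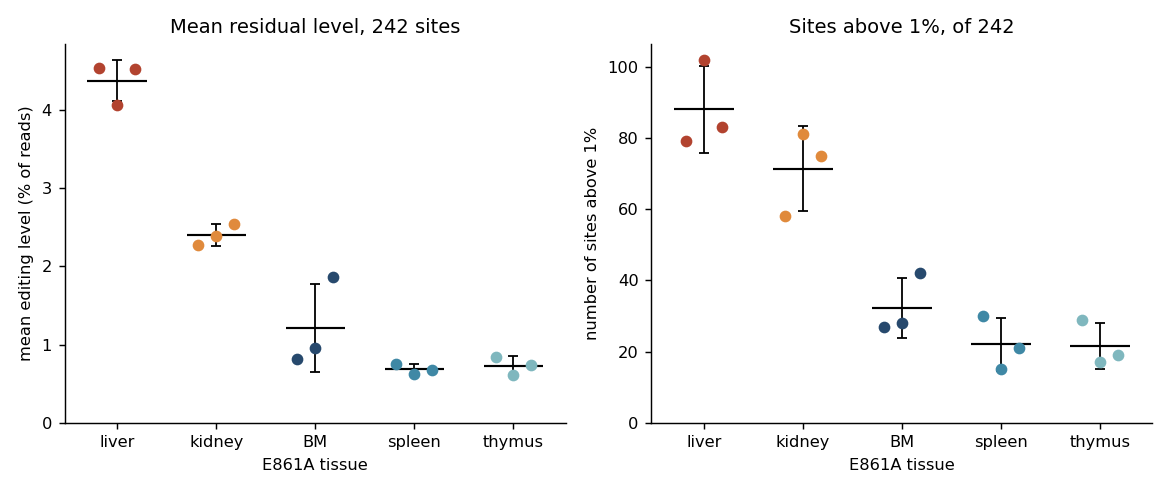
Mean residual editing level in percent of reads (left) and number of sites above 1% (right) over the 242 sites read in all 15 E861A libraries, by tissue. Points are libraries, horizontal bars the mean and vertical bars the SD of 3 libraries; liver libraries sit between 4.07% and 4.53% and kidney libraries between 2.27% and 2.54%, above all libraries of BM, spleen and thymus.

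Of the 390 sites, 56.2% had a pooled level above 1% in liver, 41.8% in kidney, 25.9% in BM, 12.1% in spleen and 11.8% in thymus. Liver and kidney shared 102 of these sites, which is 46.6% of the liver sites and 62.6% of the kidney sites. Sites above 1% in a single tissue numbered 110 in liver, 55 in kidney, 67 in BM, 20 in spleen and 22 in thymus, and 9 sites were above it in all 5. Many of these levels rested on 1 library: 47.2% of the sites exceeded 1% in only 1 of the 15 libraries (65 sites in a liver, 33 in a kidney, 54 in a BM, 14 in a spleen and 18 in a thymus library), and 3 sites exceeded it in all 15. An example, picked after the values were seen, is a 3'-UTR site of the talin gene Tln2 (chr9:67067836), which had 100% in BM replicate 3 and 0.639% and 0.385% in the other BM libraries.

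At single sites, 56 of the 390 were higher in liver and kidney (14.4%) and 2 were lower (0.513%), by limma at a threshold of 0.05 after Benjamini-Hochberg adjustment for 390 sites. The fit used the scale log2((level + 0.01)/(1 − level + 0.01)). All log2 differences are on this scale, where the offset understates changes of low levels. The fit measures error by the spread of libraries within a tissue, so the calls compare these tissues, not classes of tissue in general. At an unadjusted p under 0.05 there were 103 and 3. A quasi-binomial model of the reads called 28 higher and 0 lower. The 56 sites lay in 31 genes and 3 intergenic positions. Each of them had a level above 1% in at least 2 libraries. At 27 of the 56 all liver and kidney values lay above all values of the other tissues; over the 390 sites this was so at 6.92%, and at 0.513% in the opposite direction. These counts depend in part on how sites were chosen. A site that passed the limit of 1% through 1 class alone had its higher level in that class: 227 sites passed through liver or kidney alone (35 called higher, 0 lower), 110 through BM, spleen or thymus alone (0 higher, 0 lower) and 53 through both (21 higher, 2 lower). Without the limit, 50 of 4183 covered sites were higher (1.2%) and 18 lower (0.43%). Of the 50, 47 were among the 390, whereas 17 of the 18 lower ones were not and had pooled levels of at most 0.755%. Among 827 covered sites edited above 1% in WT, 52 were higher (6.29%) and 6 lower (0.726%), and 51 of the 52 were among the 56.

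**Figure D2:**
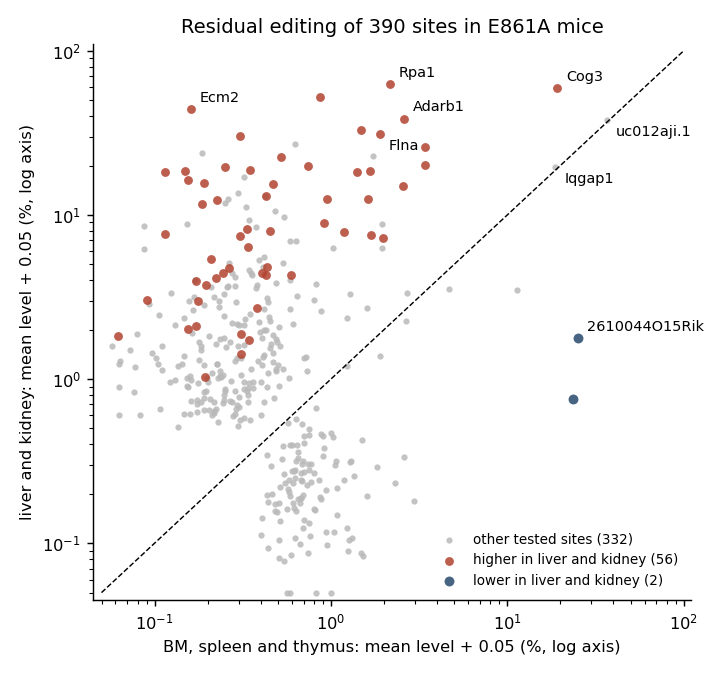
Mean level of each of the 390 sites in liver and kidney (vertical) against BM, spleen and thymus (horizontal), both as the mean of tissue means in percent plus 0.05 on log axes; the dashed line marks equal levels. The 56 sites called higher lie above the line and the 2 called lower, both in 2610044O15Rik, below it; the empty band near the line at low levels comes from the limit of 1% by which sites were chosen.

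Pair by pair within the same fit, liver was above BM at 45 sites (2 below), above spleen at 48 (0 below) and above thymus at 49 (2 below). Kidney was above BM at 26 sites, above spleen at 28 and above thymus at 23, and below them at 0. At 16 sites liver and kidney each passed the test against each of BM, spleen and thymus. Between BM, spleen and thymus no site passed the threshold in any of the 3 pairs.

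By annotation, 39 of 255 3'-UTR sites were called higher, 4 of 60 intronic, 3 of 33 intergenic and 2 of 18 non-coding RNA sites. These shares were 15.3%, 6.67%, 9.09% and 11.1%, against 14.4% of all tested sites. Of 14 sites that change an amino acid 6 were higher (42.9%), of 7 5'-UTR sites 1 was higher and 2 lower, and of 3 synonymous sites 1 was higher. The median level of the 3'-UTR sites was 1.16% in liver and 0.544% in kidney, against 0.295%, 0.195% and 0.185% in BM, spleen and thymus. For the amino-acid-changing sites it was 4.20%, 0.867%, 0.496%, 0.236% and 0.578% in the same order.

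Of the 6 amino-acid-changing sites called higher, that of Cog3 had the smallest standard error. Cog3 encodes a subunit of the conserved oligomeric Golgi complex, and its site changes isoleucine to valine. Its level was 62.8%, 60.8% and 60.4% in liver and 57.0%, 57.0% and 58.3% in kidney. In BM it was 21.9%, 15.7% and 15.5%, in spleen 18.3%, 22.0% and 23.2%, and in thymus 14.2%, 17.8% and 23.5%. Cog3 was thus edited at 14.2% or more in all 15 libraries, and all 6 liver and kidney libraries stood above the other 9 (log2 difference 2.58, SE 0.13, adjusted p = 1.76e-09). The adjacent synonymous adenosine of Cog3 (chr14:76119527) was lower in level and had 7.37% ± 1.74 (SD, n = 3) in liver, 7.62% ± 2.72 (SD, n = 3) in kidney and tissue means of 1.32% to 2.03% in the other 3 (adjusted p = 0.00223).

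Flna encodes filamin A, which cross-links actin filaments, and its site changes glutamine to arginine. It had 33.9%, 33.1% and 28.2% in liver and 30.9%, 28.7% and 32.3% in kidney. Its level was 1.499%, 0.381% and 1.30% in BM, 3.38%, 3.61% and 2.93% in spleen, and 1.74%, 0.851% and 0.838% in thymus. Liver and kidney did not overlap with the rest (log2 difference 4.12, SE 0.25, adjusted p = 2.07e-08), and the 21 bases of this site occur at 1 other place in the genome. The intronic Flna site chrX:71471989 had 99.1% and 0 in the liver libraries that covered it, 0 and 8.90% in those of kidney and tissue means of at most 1.36% elsewhere, and did not pass (adjusted p = 0.225).

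Copa, the alpha subunit of the COPI coat of Golgi vesicles, also carries an isoleucine-to-valine site. It had 32.7%, 28.6% and 30.7% in liver and 10.6%, 7.25% and 9.20% in kidney. In the other 9 libraries it ranged from 0 to 1.69% with a median of 0.546% (log2 difference 3.77, SE 0.33, adjusted p = 9.1e-07). The liver libraries were all above the kidney libraries at Copa, but the difference between the 2 tissues just missed the threshold (adjusted p = 0.0545).

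Gria3, an AMPA-type glutamate receptor subunit, was edited mainly in liver. The site changes arginine to glycine and had 46.6% and 82.1% in the 2 liver libraries that covered it, and 0.950%, 1.81% and 0.997% in kidney. The remaining tissues had 0 to 5.63%, with the highest values in 1 thymus and 1 BM library. Gria3 was called higher in the class comparison (adjusted p = 0.000438), yet kidney lay within the range of the other tissues, and without liver the adjusted p was 0.753. With liver kept, the quasi-binomial model of the reads gave an adjusted p of 0.133. Cyfip2, a subunit of the WAVE complex that regulates actin, carries a lysine-to-glutamate site that had 8.50%, 1.97% and 9.26% in liver and 0.934%, 2.94% and 2.67% in kidney. Its other 9 libraries lay between 0.0928% and 0.446%, below all liver and kidney values (log2 difference 1.97, SE 0.34, adjusted p = 0.000554).

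**Figure D3:**
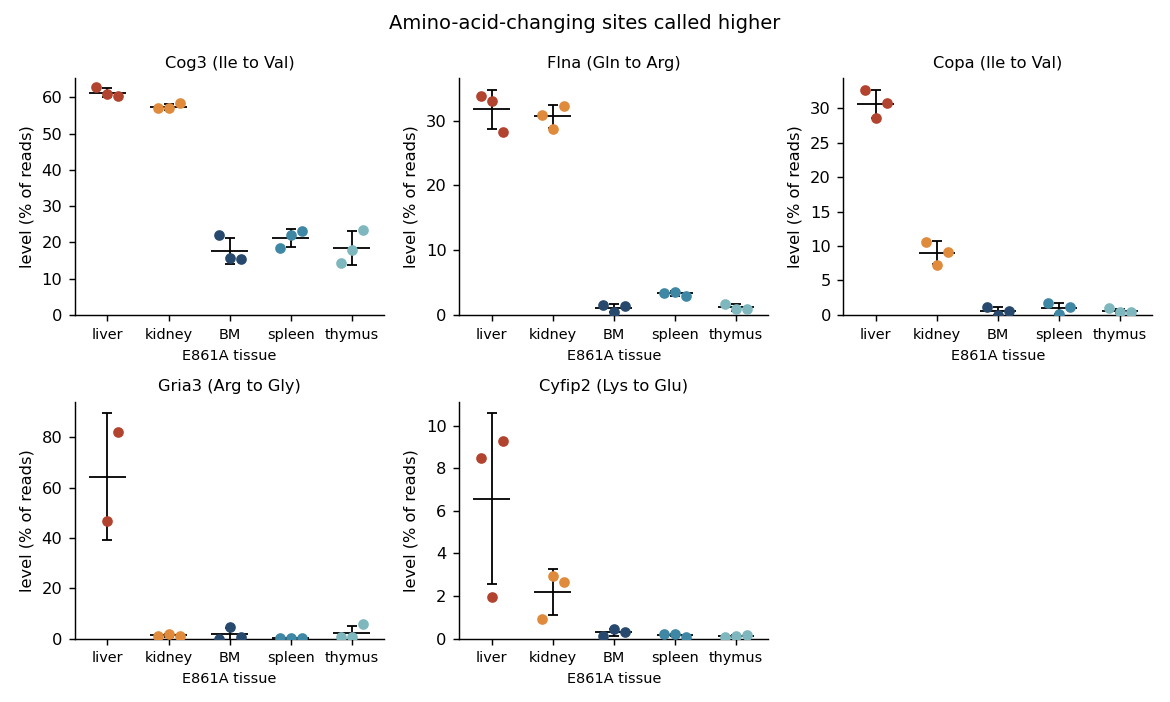
Editing level in percent of reads at 5 amino-acid-changing sites called higher, in each E861A library of liver, kidney, BM, spleen and thymus. Points are libraries and bars the mean and SD of the libraries that covered the site; the Cog3 means were 61.3% in liver and 57.4% in kidney, those of Copa 30.7% and 9.01%, and those of Gria3 64.4% and 1.25%.

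The other amino-acid-changing sites were not called. At 3 adenosines of Zfp362 the level was 11.6%, 11.9% and 11.7% in liver replicate 1 and at most 0.809% in the other liver libraries, and at a 4th adenosine (chr4:128472114) BM replicate 1 had 2.54%. Sites in uc008wxi.1 (18.8%), Arl6ip4 (3.33%) and Gli1 (3.81%) were each high in 1 library, of thymus, thymus and kidney. A list of 25 genes known for recoding was also read as a group: 11 had a covered site, and 6, among them Cog3, Copa, Cyfip2, Flna and Gria3, had at least 1 of the 390 sites. Of their 11 sites 7 were called higher and 0 lower, against 14.4% higher over all sites, with a median log2 difference of 2.58 against 0.39. The list was not chosen independently of these results. Of 2 tested 3'-UTR sites in Bri3bp, a gene outside the list, 0 were called: chr5:125937847 had 0.198% in liver and 4.00% ± 6.78 (SD, n = 3) in kidney (adjusted p = 0.753), and chr5:125937937 had tissue means of at most 0.944% (adjusted p = 0.259).

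Of the 56 sites called higher 39 lay in 3'-UTRs, as did 255 of the 390 tested. Rpa1, the large subunit of the single-stranded DNA-binding complex RPA, had 15 tested sites, of which 8 were called higher. The leading one, chr11:75114517, had 60.4%, 80.6% and 96.7% in liver and 16.5%, 59.7% and 63.1% in kidney. It had 2.96% and 3.48% in BM (replicate 2 was not covered), 5.03%, 0.0756% and 2.09% in spleen, and 0, 0.124% and 2.00% in thymus. Every liver and kidney library was above every other, although the 2 tissues spread widely themselves (log2 difference 6.29, SE 0.66, adjusted p = 7.79e-06). A 2nd group of Rpa1 sites, 383 to 397 bases further along the transcript, had 5 of its 6 members called, led by chr11:75114120 with 20.1% ± 5.24 (SD, n = 3) in liver, 10.9% ± 3.43 (SD, n = 3) in kidney and at most 0.678% in the means of the other tissues (adjusted p = 1.75e-06). Neighbouring adenosines differed strongly: 5 bases after the leading site the mean was 2.78% in liver and 0.214% in kidney, and 15 bases after it 24.1% and 8.63%.

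Dclre1c, which encodes the nuclease Artemis of DNA end joining, had 15 tested sites within 36 bases of its 3'-UTR, 2 of them called higher. The site at chr2:3377650 had 18.6%, 38.3% and 48.3% in liver and 32.6%, 24.8% and 18.3% in kidney. The other libraries ranged from 0.0664% to 0.785%, with 1 spleen library not covered (log2 difference 5.10, SE 0.37, adjusted p = 3.65e-07). At the other called site (chr2:3377656) the mean was 7.44% in liver and 2.01% in kidney, and the remaining 13 sites had liver means of 0.256% to 4.75%. Ankrd28, an ankyrin repeat protein, had 5 of 10 sites called, and its cluster also held editing in BM. At chr14:32513848 liver had 18.6%, 12.5% and 15.8%, kidney 16.1%, 5.59% and 21.6%, and BM 4.18%, 0 and 11.3%. Spleen and thymus had 0.0583% to 2.77% there, and BM replicate 3 lay above 1 of the kidney libraries (adjusted p = 0.00228). The other genes with many tested sites were uc012aji.1 (2 of 11 called higher) and Slc35e1 (0 of 8, with medians of 1.20% in liver and 1.00% in kidney and 0.225%, 0.186% and 0.231% in BM, spleen and thymus).

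**Figure D4:**
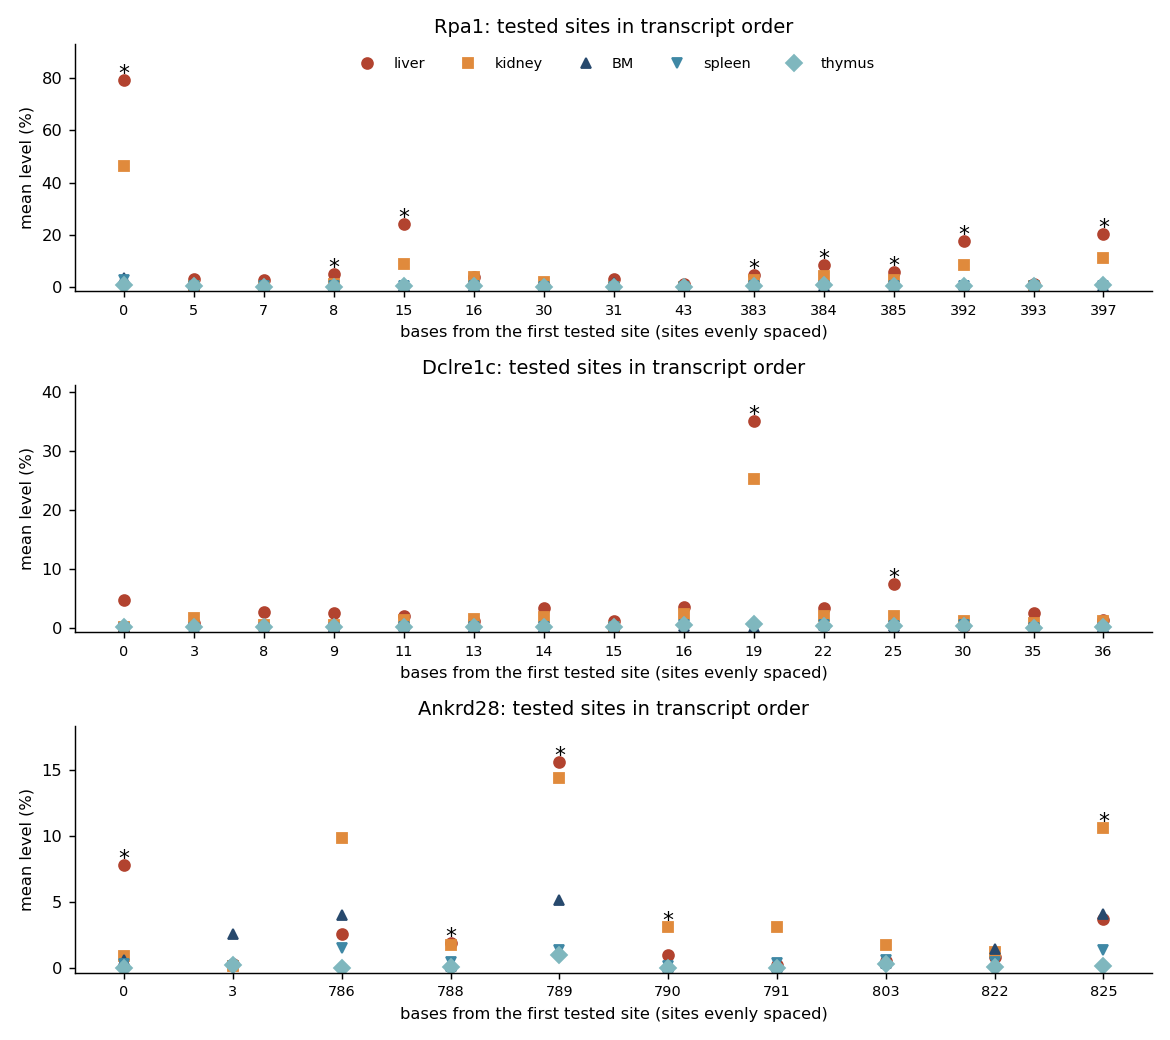
Mean residual level in percent at each tested site of Rpa1, Dclre1c and Ankrd28, in transcript order and evenly spaced, with the distance in bases from the first tested site under each. Symbols are tissue means of E861A libraries and asterisks mark sites called higher; within each cluster 1 or a few adenosines stand out (79.2% in liver at the first Rpa1 site), in liver and kidney alike, while BM reaches 5.16% in Ankrd28.

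Ecm2, which encodes an extracellular matrix protein, had 90.1% and 22.0% in liver (replicate 1 was not covered) and 41.3%, 30.8% and 24.2% in kidney at chr13:49627526. Its level was at most 0.243% in the other 9 libraries (log2 difference 6.29, SE 0.62, adjusted p = 4.45e-06). The neighbouring site chr13:49627504 followed with 1.01% to 29.4% in liver and kidney and at most 0.238% elsewhere (adjusted p = 0.000529). In a quasi-binomial model of the reads neither Ecm2 site passed (adjusted p = 0.164 and 0.0700). In uc012eok.1, a transcript that overlaps Tia1, liver had 22.1%, 9.52% and 23.8% and kidney 23.1%, 9.51% and 22.7%. The means of these 2 tissues were 18.5% each, against 0.0738% to 0.129% in the others (adjusted p = 4.4e-07). C330018D20Rik on chromosome 18 had all 5 of its sites called higher. The leading one was at 50.5% ± 5.62 (SD, n = 3) in liver and 54.3% ± 11 (SD, n = 2) in kidney, against tissue means of 0 to 2.33% (adjusted p = 4.4e-07). In the quasi-binomial model this site passed (adjusted p = 0.0436) and another did not (adjusted p = 0.162). A further site lost its call in a limma fit over 24 E861A libraries (adjusted p = 0.123).

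Further 3'-UTR sites with no overlap between the classes were those of Agphd1 (26.5% in liver and 12.8% in kidney, adjusted p = 3.39e-06), Klhl24 (17.9% and 7.10%, adjusted p = 4.59e-05), Fam32a (6.48% and 11.3%, adjusted p = 4.22e-05) and Malt1 (12.3% and 4.06%, adjusted p = 8.63e-05). Their means in BM, spleen and thymus were at most 1.95%, and in the quasi-binomial model Agphd1 did not pass (adjusted p = 0.0622). Malt1 encodes a protease of lymphocyte antigen receptor signalling, and in the blood-forming organs its E861A level was 0.143% to 0.449% by tissue mean. In Agphd1, 3 libraries of spleen and thymus had 0 edited reads, which at their coverage allows a level of up to 1.10% (3 reads; counting error only, since PCR reads are not independent molecules). Called 3'-UTR sites of the remaining genes (Atl3, Ccdc157, Echs1, Mbd4, Ncl, Ovca2, Pkd2, Rwdd2b, Tox4 and Trove2) had class means between 0.981% (Ccdc157) and 18.1% (Trove2) in liver and kidney. The 21 bases of the Agphd1 site occur at 374 other places in the genome and those of Klhl24 at 877, of which 2 and 83 carry G in place of the adenosine, and both of the 2 other copies of the Fam32a bases carry G.

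Adarb1, the gene of ADAR2, had 7 tested intronic sites, of which 2 were called higher; it is named here after its values were seen, since its classes overlapped. At chr10:76786805 liver had 54.9%, 57.3% and 69.1% and kidney 0, 27.4% and 23.0%. BM had 0.583%, 0 and 19.4% there, spleen 0.192% to 0.266%, and thymus 0, 0 and 2.34%. The class difference passed (log2 difference 4.46, SE 0.83, adjusted p = 0.00111), and 1 kidney library with 0 edited reads and 1 BM library at 19.4% broke the separation. Without liver it no longer passed (adjusted p = 0.173).

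Some residual levels did not follow the classes. In 2610044O15Rik, annotated as a 5'-UTR, 2 adenosines 7 bases apart were lower in liver and kidney. The first (chr17:95233738) had 0.198%, 1.72% and 2.43% in liver and 2.89%, 2.23% and 0.877% in kidney. It had 26.7% and 31.7% in BM (replicate 2 was not covered), 15.5%, 31.8% and 4.00% in spleen, and 5.58%, 14.2% and 66.7% in thymus. All libraries of the blood-forming organs were above all of liver and kidney, with replicates spread over a wide range (log2 difference −3.42, SE 0.69, adjusted p = 0.00259). The other adenosine behaved alike (log2 difference −3.90, SE 0.73, adjusted p = 0.00143). Since BM had only 2 covered libraries at these sites, leaving out BM replicate 1 or 3 removed them from the comparison, and the number of sites called lower was then 0. In a quasi-binomial model of the reads neither site passed (adjusted p = 0.152 and 0.222), nor did they on untransformed levels (adjusted p = 0.128 and 0.145).

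At 2 further sites the level was close to constant. The uc012aji.1 site at chr17:6123047, in a non-coding RNA that overlaps Tulp4, had tissue means of 36.1% to 39.4% in the 5 tissues (adjusted p = 0.433), and 36.8% to 39.8% in WT. Iqgap1, a cytoskeletal scaffold, had 18.1% to 20.2% at its 3'-UTR site (adjusted p = 0.62) and 16.7% to 19.7% in WT. Their 21 bases occur at 285 and 23 other places in the genome, of which 56 and 1 carry G at the position of the adenosine; the part of these copies in the levels was not tested. Fnbp1 was above 1% in all 5 tissues as well, with 70.2%, 17.1% and 45.9% in liver, 1.33%, 11.4% and 9.47% in kidney and tissue means of 2.39% to 4.50% in the others (adjusted p = 0.0103), a call that was lost without liver (adjusted p = 0.393), with no level limit (adjusted p = 0.114) and in the quasi-binomial model (adjusted p = 0.0897).

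Between liver and kidney themselves 6 sites differed, 5 higher in liver (1.28%) and 1 higher in kidney (0.256%), and 63 had an unadjusted p under 0.05. This count was not stable: it was 13 without liver replicate 1, 3 without liver replicate 2, thymus replicate 2 or thymus replicate 3, and 3 to 12 under other settings. The liver-higher sites were led by Gria3 (log2 difference 6.46, SE 0.89, adjusted p = 0.00111). S100pbp followed with 36.1% and 43.7% in liver, where replicate 3 was not covered, and 0, 0.713% and 15.0% in kidney (adjusted p = 0.0418). The third was uc007nmn.2, with 20.1%, 23.0% and 62.5% in liver and 0.0443%, 6.39% and 0.190% in kidney (adjusted p = 0.0053). The 21 bases around the last 2 sites belong to repeats, with 44443 and 43743 other copies, of which 595 and 42288 carry G in place of the adenosine. The part of these copies in the levels was not tested. The kidney-higher site lay in C330018D20Rik, at 5.07% and 1.95% in the 2 covered kidney libraries and at most 0.0989% in liver (adjusted p = 0.00643). At 45 of the 56 sites called higher the liver mean was above the kidney mean, and at 264 of all 390 (67.7%).

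Sequence around the sites was not used to choose them. The base before the edited adenosine was T at 55.4% of the 56 sites called higher (31 of 56), at 24.6% of the other tested sites (82 of 334) and at 18.2% of the covered sites at or below the limit of 1% (692 of 3793). It was G at 3.57%, 19.8% and 24.2%. The base after the adenosine was G at 37.5%, 48.8% and 34.7%. Among the 110 sites that passed through BM, spleen or thymus alone, T preceded 9.09% and G 30.0%. These shares are descriptions, since neighbouring sites of 1 transcript are not independent: 47 of the 56 sites had another tested site within 100 bases (83.9%), as did 295 of the 390 (75.6%). Of the 56, 20 lay in 21 bases that occur again in the genome (35.7%), against 41.3% of the 390.

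Levels in libraries that the comparison did not use bear on the same sites. In E861A brain 54 of the 55 sites with at least 2 covered libraries had a mean level above 1%, against 57.7% of the 345 tested sites so covered there, and the median over the 56 sites was 28.9%. In E861A heart 19 of 55 were above 1% (13.4% of 381 tested sites), and in E861A small intestine 14 of 54 (7.18% of 362). Cog3 was at 54.1% and Flna at 62.0% in heart, whereas Rpa1 chr11:75114517 was at 0.108%.

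The WT mice gave the background measured in the same way. At the 56 sites the median level was 18.5% in WT liver and 12.6% in WT kidney, against 10.3% and 6.26% in E861A. In BM it was 5.77% in WT and 0.210% in E861A, in spleen 0.604% and 0.250%, and in thymus 3.32% and 0.230%. The E861A levels chose these 56 sites, so the gap between genotypes there depends in part on that choice. Over all tested sites, also chosen by E861A level, the WT and E861A medians were 1.00% and 1.21% in liver and 1.36% and 0.392% in kidney. They were 0.310% and 0.312% in BM, 0.266% and 0.201% in spleen, and 0.306% and 0.201% in thymus. At 45 of the 56 sites WT had a mean above 1% in BM, spleen or thymus, and at 50 the WT mean was also higher in liver and kidney. These 2 counts were not made over all 390 sites, so whether they are particular to the 56 was not tested. Cog3 was at 64.0%, 60.7%, 17.1%, 25.5% and 19.9% in WT liver, kidney, BM, spleen and thymus, within 5 percentage points of each E861A mean. Rpa1 chr11:75114517 was at 68.3% in WT BM, where E861A had 3.22%. Over the 94 sites read in all 30 libraries of both genotypes, the mean level in liver was 7.72% ± 1.79 in WT and 4.53% ± 0.550 in E861A (SD, n = 3 each). In kidney it was 5.56% ± 0.204 and 3.16% ± 0.384, and in BM 4.81% ± 1.13 and 1.02% ± 0.140 (SD, n = 3 each). In spleen it was 2.01% ± 0.337 and 0.890% ± 0.0554, and in thymus 3.73% ± 2.47 and 0.790% ± 0.132 (SD, n = 3 each). The WT thymus libraries spread from 1.37% to 6.30%, and WT BM replicate 2 had 1861831 reads, against 5447363 and 8364948 in the other WT BM libraries, and covered fewer of the 390 sites than they did.

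**Figure D5:**
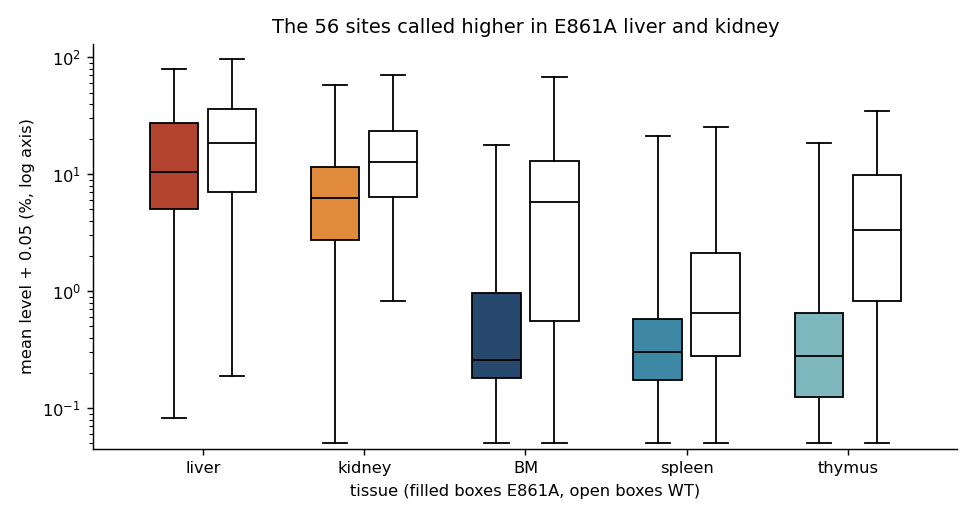
Tissue mean levels, in percent plus 0.05 on a log axis, of the 56 sites called higher, in E861A (filled) and WT (open) mice. The sites were chosen by their E861A levels, on which the gap between genotypes depends in part. Boxes span the quartiles with the median, and whiskers reach the lowest and highest site; medians are 10.3% and 18.5% in liver and 0.210% and 5.77% in BM for E861A and WT.

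Whether the class difference itself depended on genotype was tested by the limma interaction over 30 libraries at the 340 sites also covered in WT. It passed at 4 sites (1.18%), 1 of them with a larger difference in E861A and 3 with a larger one in WT, and at 41 with an unadjusted p under 0.05. The count was 7 to 15 over the 4 other settings tried, with 15 under a replicate block. It was 2 without E861A liver replicate 1 or 2, 7 without WT liver replicate 1 or 3 or WT thymus replicate 2, 9 without E861A liver replicate 3 or WT spleen replicate 3, 10 without WT BM replicate 3, and 12 without WT thymus replicate 3. Of 54 sites called higher that could be tested, 1 passed, in Malt1. In WT alone, 73 of the 340 were higher in liver and kidney and 0 lower by the same test. The 340 come from the 390 sites chosen by E861A level, of which 227 passed through liver or kidney alone. The split in WT therefore depends in part on that choice.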

How the data were processed

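RNA of 8 tissues from 2 genotypes was assayed by mmPCR-seq, and 15 E861A libraries were used for the comparison and the 15 WT libraries of the same tissues as background. For each library the authors deposited, per position, the coverage and edited read counts, with no normalization, and their quotient as a fraction, the editing level. The submitters' processing notes name STAR, SAMtools and mm9, with versions not given in the sources used here. A combined table of levels and one of coverage were not used. All 390 sites carried A on their own strand of NCBIM37 (mm9), from which the 21-base contexts were read with samtools 1.23.1. A level was used where coverage exceeded 100 reads.

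Levels were computed from the counts with Python 3.11.15, pandas 2.3.3, numpy 2.4.6 and scipy 1.17.1, and plotted with matplotlib 3.10.9. Single sites were fitted in limma 3.58.1 (R 4.3.3) on log2((level + 0.01)/(1 − level + 0.01)) with 1 term per tissue and a mean-variance trend. The contrast was the mean of liver and kidney minus the mean of BM, spleen and thymus, with Benjamini-Hochberg adjustment at 0.05. The code was tested on simulated data. Mean levels were compared by a two-sided exact permutation test over libraries. Alternatives changed the coverage minimum, level limit, offset, scale, model, replicates and tissues, and one (a level above 0.01 in at least 3 libraries) was chosen after the data were seen. The p-values measure the spread between libraries, except in the permutation with tissue means as units. Since the limma fit had 1 term per tissue, its p-values rest on the spread of libraries within a tissue. They leave out the spread between tissues of a class. The site calls therefore compare the tissues sampled here, not classes of tissue in general. No 2 libraries held identical values.

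Named were the called sites with the largest difference of mean level whose classes did not overlap (up to 15, at most 2 a gene, and up to 5 in the other direction). Also named were up to 3 sites in each direction between liver and kidney, all amino-acid-changing sites, up to 6 sites above 1% in all 5 tissues, the 5 genes with most tested sites, and sites of known recoded genes or genes the study names. The tissues, sites and lists were chosen with earlier results of these data known. One gene is not reported here. The targeted Adar1 change itself could not be checked, since its RNA was not sequenced for expression. Whether libraries with the same replicate number came from 1 animal is not known from the labels. Deviations of same-numbered libraries correlated between -0.228 and 0.156 (30 pairs, median -0.003), and those of other numbers between -0.153 and 0.237 (60 pairs). With 3 libraries per tissue and many low levels, these correlations cannot decide it.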

Additional observations from a re-analysis of the deposited data

Results flagged for a closer look

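At 4 sites the difference between liver and kidney and the blood-forming organs itself differed between genotypes, by the limma interaction term over 30 libraries with Benjamini-Hochberg adjustment over 340 sites. All values are on the log2 ratio scale and the interaction is E861A minus WT. In Trove2, which encodes the RNA-binding autoantigen Ro60, the 3'-UTR site chr1:145602501 had an interaction of -5.84 (SE 0.97, adjusted p = 0.00117). Its WT means were 62.9% in liver and 20.6% in kidney, against 2.41%, 0.0863% and 0.779% in BM, spleen and thymus, while the E861A levels of liver and kidney were at most 0.337%. In E861A BM the 5 tested Trove2 sites, this one included, had pooled levels above 1%. Their E861A tissue means in BM, spleen and thymus were at most 2.34%. Only 7 bases from chr1:145602501, at chr1:145602508, E861A liver had 18.9% and 40.8% (the third library was not covered). The latter site was called higher by limma (adjusted p = 0.00846). Its 21 bases occur at 2 other places in the genome, of which 2 carry G in place of the adenosine. The part of these copies in the level was not tested.

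In Cds2, a CDP-diacylglycerol synthase, the 3'-UTR site chr2:132135616 had an interaction of -3.81 (SE 0.81, adjusted p = 0.00885). Its WT means were 82.1% in liver, 45.7% in kidney and 44.3% in BM, and E861A liver and kidney libraries had 0.0983% to 7.60%. At the 3 tested Cds2 sites the E861A tissue means of BM, spleen and thymus were at most 1.03%. In uc012aji.1 the site chr17:6122617 had an interaction of -5.85 (SE 1.22, adjusted p = 0.00885), with WT means of 57.6% in liver and 21.5% in kidney and 1 E861A kidney library at 13.5% among values otherwise at most 0.179%. Its 21 bases occur at 4 other places in the genome, of which 4 carry G in place of the adenosine, and their part in the levels was not tested.

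The Malt1 site on chromosome 18 had an interaction of 2.90 (SE 0.63, adjusted p = 0.00974). Its E861A difference was 2.67 and its WT difference -0.23, with WT means of 1.00% in liver, 6.45% in kidney and 12.6% in BM. The 4 sites were the only ones of the 340 that passed; the number changed with the fit, as given with the processing.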

How the results depend on the processing

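The number of sites called higher (56) stayed between 37 and 79 in all alternatives except the quasi-binomial model of reads, which called 28. It was 37 without sites whose 21 bases occur again in the genome, 79 without kidney and 54 with a replicate block, and it lay between 46 and 70 on leaving out 1 library. The 2 sites called lower became 0 at over 500 reads, with coverage in all 3 replicates, on untransformed levels and in the quasi-binomial model, 18 with no level limit and 6 among sites edited in WT; leaving out 1 library gave 0 to 2. The 6 sites between liver and kidney became 11 at over 50 reads, 3 at over 500 reads, 12 and 11 with a level above 1% in at least 2 or 3 libraries, 10 without the variance trend, and 3 each without repeated 21 bases, without BM, without spleen and in the quasi-binomial model. Leaving out 1 library gave 3 to 13, with 13 without liver replicate 1 and 3 without liver replicate 2, thymus replicate 2 or thymus replicate 3. The 4 sites that differed between genotypes became 15 with a replicate block, 11 on untransformed levels, 7 at an offset of 0.05 and 11 at a level limit of 5%, and 2 to 12 on leaving out 1 library. The difference of the mean levels (2.51 points) lay between 2.35 and 2.72 on leaving out 1 library, kept p = 0.002 in the permutation with a replicate block (1000 relabelings), and lost the threshold with tissue means as units (2.51, p = 0.2) and as a median over sites (0.0585, p = 0.25, exact permutation tests). Among the named sites, called or not, 1222 values under alternatives stayed on their side of the threshold, and 20 calls were lost. The quasi-binomial model lost, among others, Gria3, Agphd1, Fnbp1, uc007nmn.2 both sites of Ecm2 and of 2610044O15Rik, and 2 C330018D20Rik sites but not its leading one (adjusted p = 0.0436), and leaving out liver lost Gria3, Fnbp1, S100pbp and uc007nmn.2. No level limit lost Fnbp1 and 1 site of 2610044O15Rik, untransformed levels lost both sites of 2610044O15Rik, and a fit over 24 E861A libraries lost 1 C330018D20Rik site. The causes were not tested. A coverage near 100 reads limits the levels it can show to about 3 reads in that coverage.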
